A study of Musca domestica with 6 samples.

Results

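Chitin is the sugar polymer that stiffens the insect cuticle and, in most insects, the peritrophic matrix that lines the gut. Chitinases of glycosyl hydrolase family 18 cut it with a catalytic GH18 domain, and a separate chitin-binding domain of the CBM14 (peritrophin-A) type holds many of these enzymes on their substrate. The same CBM14 domain also occurs without any catalytic domain, in peritrophins of the gut lining and in obstructor proteins of the cuticle matrix.

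The genes described here are the 5 housefly genes LOC101893092, LOC101888642, LOC101895285, LOC101894465 and LOC101889312, out of 14227 in the deposited table. They were chosen by gene name, with earlier results of these data known, and each is described in that table as probable chitinase 3. A further gene, LOC101899985, carries the same description and is not one of the 5, so 6 genes share it, and its values are given for comparison. All 5 passed the filter on low counts and were among the 10644 genes tested.

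RNA had been sequenced from whole bodies of Musca domestica larvae in instar 2, in 3 libraries from larvae that received double-stranded RNA targeting MdCht9, a chitinase gene (dsMdCht9), and 3 from larvae that received double-stranded RNA targeting GFP (dsGFP), a fluorescent protein gene that the fly lacks. Larvae were collected 24 h after injection. The study asked what silencing MdCht9 does, and no annotation used here names that gene, so none of the 5 can be called the target or not the target. The labels name no separate pools of larvae, so p-values measure the spread between these libraries, which may be technical. Because whole larvae were used, fewer cells of a type and less RNA per cell cannot be told apart.

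Libraries held 12876941 to 15439421 counted reads, so that 1 read was worth 0.0626 to 0.0779 CPM, the read count scaled to a common library size by the trimmed mean of M-values (TMM). Both libraries numbered 3 stood apart from the others: 22.0% of all tested genes were lowest in number 3 within both groups, and 24.2% were highest. Markers of gut, fat body and muscle were abundant, as a whole body should give, with summed levels of 18921 to 30726 CPM for trypsins and relatives, 84094 to 153480 CPM for storage proteins and 18993 to 32707 CPM for contractile proteins. Each of these 3 sums was lowest in dsMdCht9 replicate 1, and their part in the results below was not tested.

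The 5 genes fell into different classes of protein by their annotation. LOC101888642 and LOC101894465 were listed with Glyco_hydro_18, the domain that is catalytic in chitinases, which 22 genes of the table carry. That label does not by itself mark an enzyme, since it is also given to imaginal disc growth factors such as LOC101890724 (Idgf4). The KEGG chitinase entry is given to 8 genes, among them LOC101888642 and LOC101894465, which are called catalytic here. Both had probable chitinase 10 as their best UniProt match, a very large secreted chitinase of Drosophila, whose relative in the beetle Tribolium is needed to complete the moult. The match was strong, with an E-value of 6e-166 for LOC101888642 and one listed as 0.0 for LOC101894465. LOC101893092, LOC101895285 and LOC101889312 were listed with CBM_14 alone, as were 87 genes of the table. The table names a single Pfam domain for a gene, so a further domain of either kind would not be seen.

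The 3 genes without a listed catalytic domain did not resemble one another in their best matches. LOC101893092 matched peritrophin-1, a peritrophic matrix protein of mosquitoes, at an E-value of 2e-10. LOC101889312 matched obstructor-E at 9e-25, which in Drosophila is a chitin-binding cuticle protein that shapes the body at pupariation, and its function terms include structural constituent of cuticle. LOC101895285 matched probable chitinase 10, but only at 6e-06. It nevertheless carried the function term chitinase activity and the KEGG chitinase entry, shared by 8 genes of the table, while LOC101893092 and LOC101889312 carried chitin binding and no enzyme entry.

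The best UniProt matches also grouped the genes with others. Probable chitinase 10 was the best match of 3 genes of the table, all of them among the 5. Obstructor-E was the best match of 8 genes, of which LOC101889312 was the only one called a chitinase. Peritrophin-1 was the best match of 4 genes, LOC101893092, LOC101899985 (E-value 2e-06) and 2 with no informative description.

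No 2 of the 5 genes lay on the same scaffold of the deposited table, whose assembly is not named. On those scaffolds, no other gene of the chitinase family lay within 100 kb of any of them. LOC101895285, LOC101893092 and LOC101888642 start less than 100 kb from the start of their scaffolds, so that window could not be searched in full. Whether the genes lie near other family genes across scaffolds was not seen. The chitinase family is here a list of 32 genes taken by terms in their descriptions and Pfam names. Some of its genes are therefore listed with neither a catalytic nor a CBM14 domain, such as LOC101888821. LOC101893092 spans positions 36425 to 37166 of scaffold NW_004765776.1 on the minus strand. LOC101895285 spans 27863 to 29046 of NW_004774205.1 on the plus strand. LOC101889312 covers more ground, from 134009 to 159122 of NW_004765656.1 on the plus strand. The catalytic pair covers most, with LOC101894465 at 780440 to 810685 of NW_004773204.1 on the plus strand and LOC101888642 at 72387 to 151311 of NW_004764758.1 on the minus strand.

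CBM14 genes were often neighbours in this genome. Of the 87 genes with CBM_14, 45 (51.7%) lay next to another one on their scaffold, while 0.46% of the other 14140 genes lay next to a CBM14 gene. LOC101889312 was such a gene, with LOC101889135, a peritrophin-1 gene that shares its obstructor-E match, 11.7 kb away on the same strand. LOC101895285 lay between the CBM14 genes LOC101895454, 8.30 kb above it on the same strand, and LOC101895113, 10.1 kb below it on the other. The nearest genes of LOC101893092, LOC101888642 and LOC101894465 held no CBM14 domain. In the newer RefSeq annotation (assembly Musca_domestica.polishedcontigs.V.1.1), the same nearest genes are again listed beside 4 of the 5, the exception being LOC101895285. There LOC101895454 is not listed by that name, and LOC101895113 is not next to LOC101895285.

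Levels of different genes can be compared only per length. The table gives a match score between each gene and its own RefSeq transcript, which behaves as a count of matched bases: it exceeded the genomic span in 0 of 12748 genes and equalled it in 285. It was therefore taken as the transcript length, and the true length should lie between it and the genomic span. The matched lengths were 636 bases for LOC101893092, 1088 for LOC101895285, 1088 for LOC101889312, 3470 for LOC101888642 and 7739 for LOC101894465.

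On that scale the CBM14 gene LOC101893092 was highest, at 134.9 ± 33.6 CPM per kb (SD, n = 6 libraries). LOC101889312 followed at 73.0 ± 42.3 CPM per kb, and LOC101888642 at 4.11 ± 1.66. The lowest levels were those of LOC101895285, at 1.67 ± 0.679 CPM per kb, and of LOC101894465, at 1.51 ± 0.499. Thus, by matched length, both genes with a catalytic domain lay far below 2 of the 3 genes without one. For LOC101889312 this depended on the length assumed, as given below, and for LOC101893092 it did not. LOC101899985, which shares the name, lay between these sets at 18.9 ± 3.16 CPM per kb.

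The order was tested on the log2 ratio of levels per kb within each library, for all 10 pairs of genes, with a two-sided exact sign-flip permutation test adjusted over the 10 pairs. With 6 libraries the smallest p is 0.0312, and 9 pairs reached it (adjusted p = 0.0347), each with the same gene higher in 6 of 6 libraries. LOC101893092 exceeded LOC101889312 by a log2 ratio of 1.10 ± 0.94 (SD) and LOC101888642 by 5.11 ± 0.56. LOC101888642 exceeded LOC101894465, the other catalytic gene, by 1.40 ± 0.98. Only LOC101895285 and LOC101894465 did not differ beyond their spread, at 0.10 ± 0.95 with the former higher in 4 of 6 libraries (exact permutation p = 0.781). The 2 groups of larvae are mixed in these tests.

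Part of this order depends on the length assumed. LOC101893092 and LOC101895285 are short, with spans of 742 and 1184 bases, so little is open for them. With the genomic span for the higher gene and the matched length for the lower, which is the least favourable choice, LOC101893092 still exceeded LOC101888642 by 4.89 ± 0.56 and LOC101894465 by 6.29 ± 0.57 on the log2 scale. Its lead over LOC101889312 was then 0.87 ± 0.94, present in 5 of 6 libraries (exact permutation p = 0.0938, adjusted over the 10 pairs 0.117). Under that choice LOC101889312 no longer exceeded LOC101888642 (-0.51 ± 0.41), and its lead over LOC101894465 was 0.89 ± 1.32 (adjusted p = 0.243). The lead of LOC101888642 over LOC101895285 and LOC101894465 did not hold either, at -3.21 ± 0.34 and -3.11 ± 0.98.

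**Figure D1:**
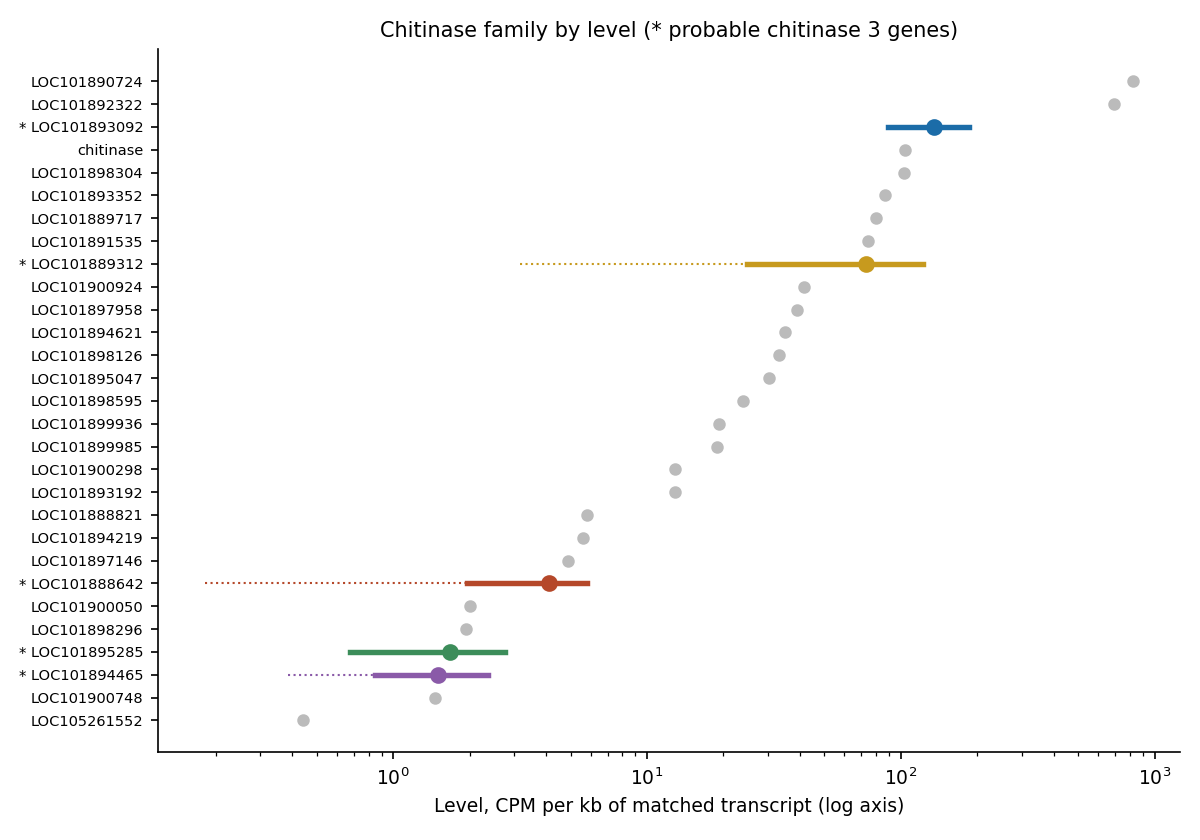
Mean level over the 6 libraries of genes of the chitinase family, in CPM per kb of matched transcript on a log axis. The 5 probable chitinase 3 genes are in colour (point: mean, thick bar: lowest to highest library, dotted line: down to the mean per kb of genomic span). The other genes are in grey. Genes without a matched length are not drawn, nor is the scarcest of the rest, at 0.0136 CPM per kb. LOC101893092 and LOC101889312 sit among the higher genes, at 134.9 and 73.0 CPM per kb, while LOC101888642, LOC101895285 and LOC101894465 sit near the bottom at 1.51 to 4.11.

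Among the 30 family genes with a matched length, LOC101893092 ranked 3 and LOC101889312 ranked 9. LOC101888642, LOC101895285 and LOC101894465 ranked 23, 26 and 27. The highest gene was LOC101890724, described as Idgf4, an imaginal disc growth factor of the chitinase fold that does not cut chitin, at 824.0 CPM per kb. These ranks are of means over libraries and rest on the matched lengths. Library by library, LOC101893092 ranked 3 to 5 and LOC101889312 ranked 4 to 14, while the other 3 genes stayed between 20 and 28. The gene that the table calls simply chitinase, listed with Glyco_hydro_18, varied from 5.97 to 281.4 CPM per kb. It was above LOC101893092 in 2 of 6 libraries.

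The next question was whether the 5 genes differed between larvae injected with RNA against MdCht9 and control larvae. All 5 had lower estimates in dsMdCht9, with log2 fold changes from -0.65 to -0.37, where 50.5% of all tested genes had lower estimates. Since the 5 were chosen with earlier results of these data known, that share cannot serve as a test of them. LOC101899985, of the same description, was at -0.10, or 0.03 by library size alone. None of the 5 passed the threshold: edgeR called 0 of them at an adjusted p under 0.05, against 0% of all tested genes. At an unadjusted p under 0.05 there was 1, LOC101893092, where 1.61% of the tested genes were lower and 1.97% higher by that measure. DESeq2 and limma-voom also called 0, each again with 1 at an unadjusted p under 0.05, a level at which 1.74% of genes were lower in DESeq2 and 1.56% in limma-voom. After adjustment, DESeq2 called 0.114% of the genes it tested and limma-voom 0%. In what follows, 3 values in a row are those of replicates 1, 2 and 3.

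LOC101893092, the peritrophin-1 match, was counted at 907, 1015 and 1036 reads after RNA against MdCht9 and at 1148, 1735 and 1604 in the controls. Scaled, these were 56.8, 79.1 and 76.4 CPM against 82.8, 118.3 and 101.5 CPM. Every dsMdCht9 library lay below every dsGFP library, by a narrow margin between dsMdCht9 replicate 2 and dsGFP replicate 1. Groups without overlap and with dsMdCht9 lower occurred in 3.38% of the tested genes, and those with dsMdCht9 higher in 4.83%. The log2 fold change was -0.51 ± 0.20 (SE), with a 95% interval from -0.99 to -0.04 (edgeR adjusted p = 0.999, unadjusted 0.0380). The exact permutation p was 0.1, the smallest that 3 against 3 libraries can give. Scaled by library size alone, the groups overlapped, at 64.3, 74.8 and 80.5 reads per 1e6 against 74.4, 113.3 and 104.1, and the exact permutation p was 0.3. By that scaling 1.57% of the tested genes were lower without overlap.

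Within replicate numbers 1, 2 and 3, the log2 difference of LOC101893092 was -0.54, -0.58 and -0.41. With the replicate number as a block its unadjusted p was 0.0045 in edgeR, while the adjusted p stayed at 0.423. By library size alone, a scaling that moved the median of all genes by 0.12, the log2 fold change was -0.41 (unadjusted p = 0.0851). The unadjusted p also rose above 0.05 when dsMdCht9 replicate 1 or 3, or dsGFP replicate 2 or 3, was left out. Its spread within groups was ordinary, with an SD of 0.26 on the log2 scale, above that of 41.1% of tested genes.

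LOC101889312, the obstructor-E match, was counted at 831, 1365 and 367 reads after RNA against MdCht9 and at 1840, 1778 and 588 in the controls. These were 52.0, 106.4 and 27.1 CPM against 132.7, 121.2 and 37.2 CPM. Both libraries numbered 3 were low, and the groups overlapped widely. The log2 fold change was -0.65 ± 0.63, the largest estimate of the 5 and the least certain, with a 95% interval from -2.15 to 0.85 (edgeR adjusted p = 0.999, unadjusted 0.335). Its SD within groups was 1.00 on the log2 scale, larger than in 95.3% of the tested genes.

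The spread of LOC101889312 lay mostly between replicate numbers. Number 3 minus the mean of numbers 1 and 2 was -1.45 on the log2 scale in dsMdCht9 and -1.77 in dsGFP. Within numbers 1, 2 and 3 the difference between groups was -1.35, -0.19 and -0.46. With the replicate block the 95% interval narrowed to -1.28 to -0.05 (edgeR unadjusted p = 0.0388, adjusted 0.584). Without dsMdCht9 replicate 2 the estimate was -1.29, and without dsMdCht9 replicate 3 it was -0.28.

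LOC101888642, the catalytic gene with the shorter transcript match, was counted at 148, 234 and 92 reads after RNA against MdCht9 and at 279, 288 and 184 in the controls. These were 9.27, 18.2 and 6.78 CPM against 20.1, 19.6 and 11.6 CPM. Only dsMdCht9 replicate 2 and dsGFP replicate 3 crossed over between the groups. The log2 fold change was -0.59 ± 0.40, with a 95% interval from -1.53 to 0.36 (edgeR adjusted p = 0.999, unadjusted 0.186, exact permutation p = 0.2). With the replicate block it was -0.66 ± 0.22 (edgeR unadjusted p = 0.0250, adjusted 0.570). Within numbers 1, 2 and 3 the difference was -1.11, -0.11 and -0.77. Without dsMdCht9 replicate 2 it was -1.09, and without dsMdCht9 replicate 3 it was -0.31.

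LOC101894465, the gene with the longest transcript match and the strongest match to chitinase 10, was counted at 192, 84 and 162 reads after RNA against MdCht9 and at 156, 144 and 290 in the controls. These were 12.0, 6.55 and 11.9 CPM against 11.2, 9.82 and 18.3 CPM. The groups overlapped, and the difference rested on the low dsMdCht9 replicate 2 and the high dsGFP replicate 3. The log2 fold change was -0.37 ± 0.33, with a 95% interval from -1.14 to 0.41 (edgeR adjusted p = 0.999, unadjusted 0.299, exact permutation p = 0.6). Without dsGFP replicate 3 it was -0.04, and without dsMdCht9 replicate 2 it was -0.13. Within number 1 the difference was 0.09, the other way from -0.57 and -0.61 in numbers 2 and 3.

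LOC101895285, the gene with the weak chitinase 10 match, was scarce, with 27, 25 and 10 reads after RNA against MdCht9 and 28, 44 and 24 in the controls. These were 1.69, 1.95 and 0.737 CPM against 2.02, 3.00 and 1.52 CPM. The groups overlapped, with dsGFP replicate 3 below 2 of the dsMdCht9 libraries. The log2 fold change was -0.57 ± 0.45, with a 95% interval from -1.63 to 0.48 (edgeR adjusted p = 0.999, unadjusted 0.240, exact permutation p = 0.4). It ranged from -0.83 without dsMdCht9 replicate 2 to -0.25 without dsMdCht9 replicate 3. A long non-coding RNA gene, LOC105262516, covers LOC101895285 on the same strand, so reads could not all be assigned with certainty. That gene had at most 0.379 CPM in any library, which does not show how reads on both genes were counted. The level of LOC101895285 per kb given above carries the same limit.

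**Figure D2:**
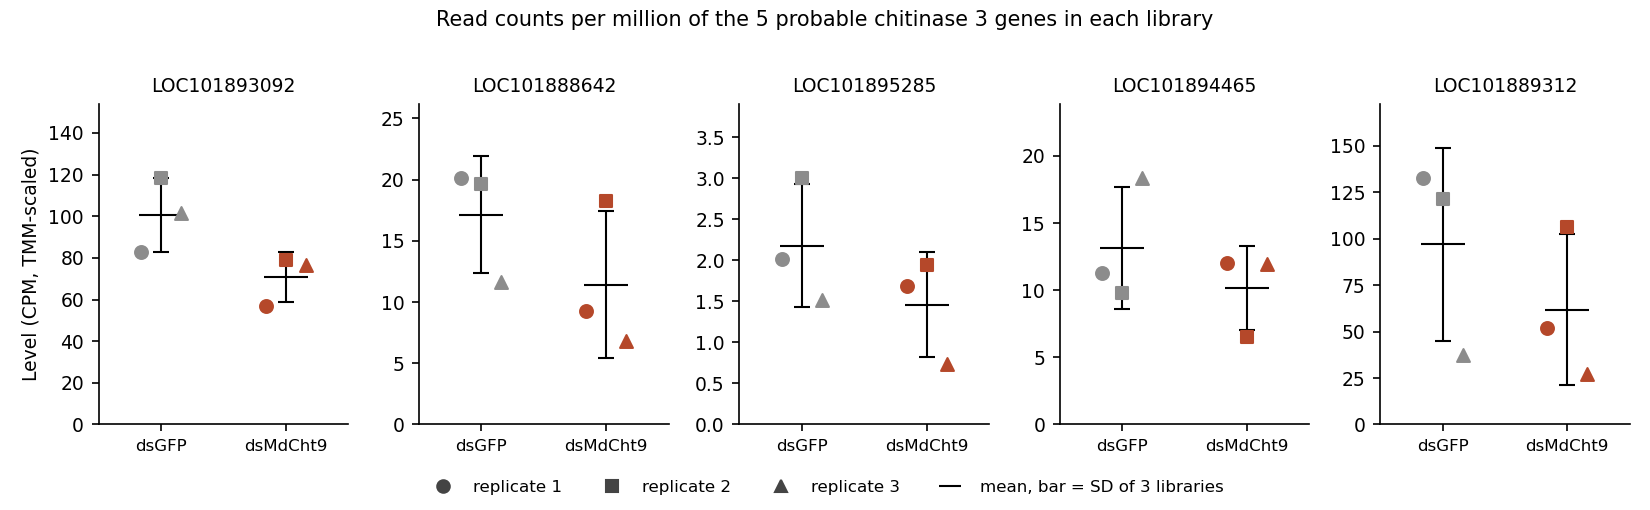
Level of each of the 5 genes in every library, in TMM-scaled CPM from 0, with dsGFP in grey and dsMdCht9 in red, symbols for the replicate number, and mean with SD over 3 libraries. With this scaling the groups are apart only for LOC101893092, which overlaps by library size alone, and both triangles (replicate 3) sit low for LOC101888642, LOC101895285 and LOC101889312.

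LOC101899985, the gene of the same description outside the 5, was counted at 314, 172 and 281 reads after RNA against MdCht9 and at 232, 324 and 301 in the controls. Its mean level was 17.9 ± 3.95 CPM after RNA against MdCht9 and 19.3 ± 2.69 CPM in the controls, and the groups overlapped. The difference was -0.10 ± 0.22 (log2), with a 95% interval from -0.61 to 0.40 (edgeR adjusted p = 0.999), and by library size alone it was 0.03. Whether it differed from the 5 in this respect was not tested.

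**Figure D3:**
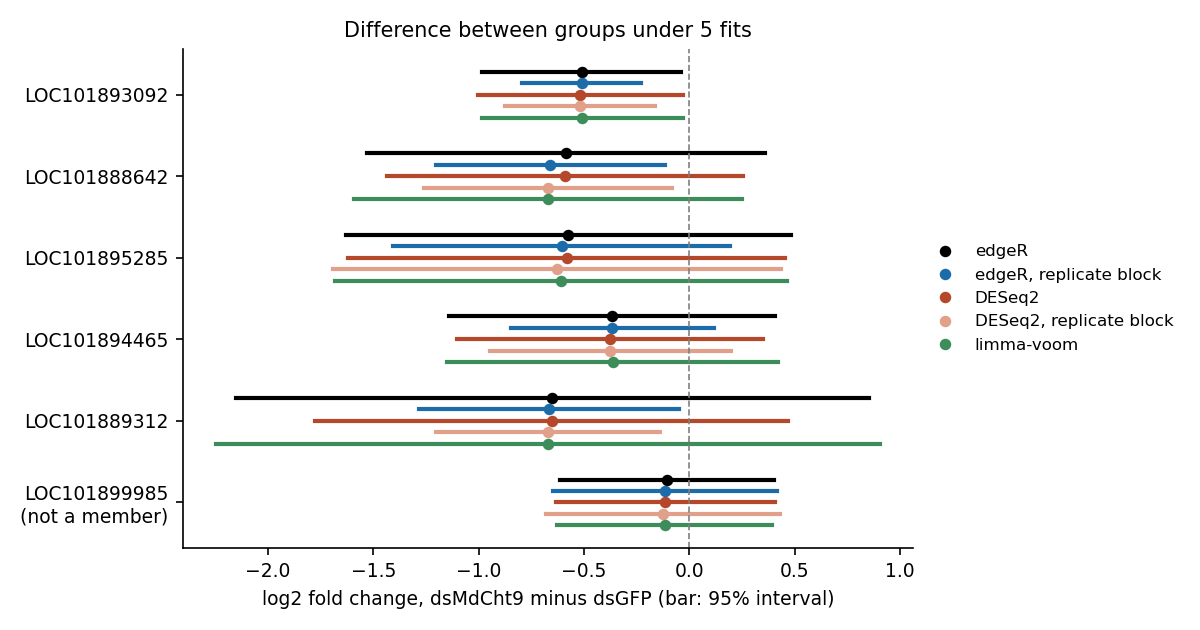
Log2 fold change, dsMdCht9 minus dsGFP, with 95% intervals for the 5 genes and LOC101899985 under edgeR, edgeR with the replicate block, DESeq2, DESeq2 with the replicate block and limma-voom. All estimates for the 5 genes lie below 0. The intervals exclude 0 under each of the 5 fits for LOC101893092, and only with the replicate block for LOC101888642 and LOC101889312, before any adjustment over genes.

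With the replicate block, 3 of the 5 genes had an unadjusted p under 0.05 in edgeR, namely LOC101893092, LOC101888642 and LOC101889312, and 0 passed when adjusted over all genes. The block also raised the background, to 4.88% of tested genes lower and 3.47% higher at an unadjusted p under 0.05. DESeq2 with the block gave the same 3 genes at an unadjusted p under 0.05, where 3.13% of all genes were lower, and likewise called 0 of the 5, with adjusted p between 0.258 and 0.630 for those 3, while calling 0.818% of the genes it tested. In the authors' deposited table the log2 fold changes of the 5 genes run from -0.65 to -0.38, and none is marked as significant, in a table that marks 2.66% of its genes. Their log2 fold changes and p-values for the 5 genes equal those of DESeq2 here, so they are no separate result. Their mark is not the threshold used here, by which DESeq2 without the block called 0.114% of the genes it tested.

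Under all 14 alternatives the estimates of the 5 genes stayed below 0. LOC101893092, LOC101888642, LOC101895285 and LOC101889312 were lower in dsMdCht9 within each of the 3 replicate numbers, as were 15.9% of the tested genes. LOC101894465 was not.

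The 5 genes differed in how they varied over libraries. LOC101888642, LOC101895285 and LOC101889312 were lowest in number 3 within both groups, a pattern found in 22.0% of tested genes. Number 3 minus the mean of numbers 1 and 2 was -0.93 in dsMdCht9 and -0.76 in dsGFP for LOC101888642 on the log2 scale, and -1.16 and -0.65 for LOC101895285. LOC101894465 did the reverse, at 0.42 and 0.80, although dsMdCht9 replicate 1 was level with dsMdCht9 replicate 3. LOC101893092 showed little of either, at 0.19 and 0.04.

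**Figure D4:**
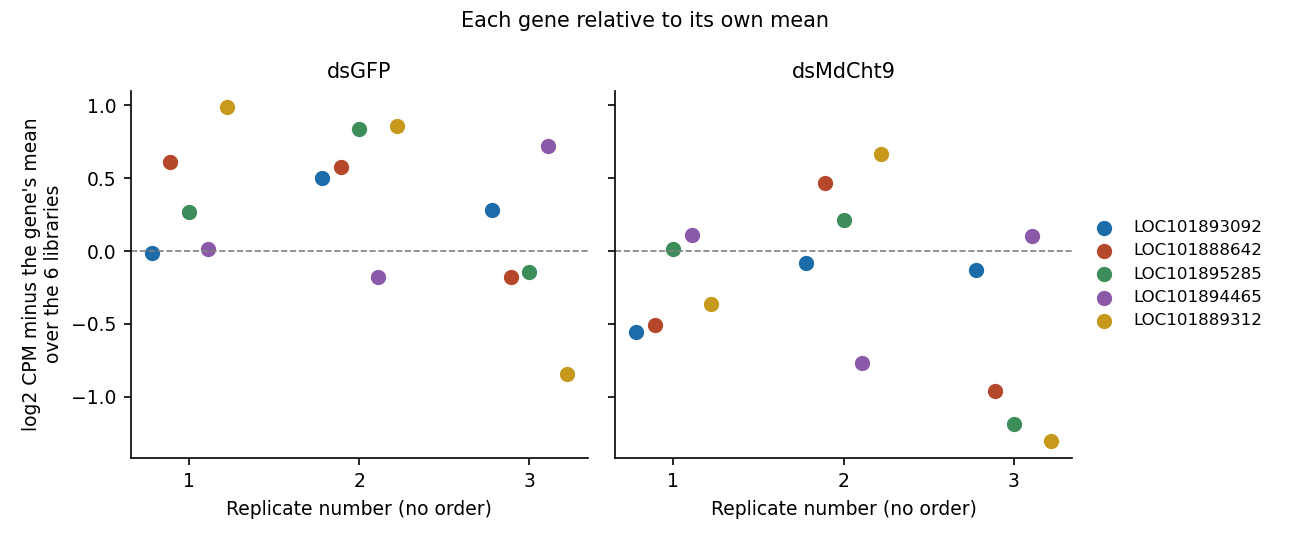
Log2 CPM of each of the 5 genes minus its own mean over the 6 libraries, by replicate number in dsGFP (left) and dsMdCht9 (right); replicate numbers have no order. LOC101888642, LOC101895285 and LOC101889312 drop together in both libraries numbered 3, LOC101894465 lies at or above its mean there, and LOC101893092 stays close to its mean there.

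Likeness was measured as Pearson's r of log2 CPM over the 6 libraries, which share the split by number and group, and is a description only. LOC101888642 and LOC101889312, the catalytic gene and the obstructor-like gene, were alike at r = 0.946. LOC101889312 ranked 97 of 10643 genes by likeness to LOC101888642. LOC101895285 was at r = 0.869 with LOC101888642 and 0.860 with LOC101889312. LOC101894465 went against the other catalytic gene at r = -0.469 and against LOC101889312 at -0.614. LOC101893092 was at 0.505 with LOC101888642 and 0.110 with LOC101894465.

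The genes most like each of the 5 came from many families. For LOC101889312 they were LOC101901305, which matches the matrix receptor MUP-4 (r = 0.994), LOC101888519, a trehalose-phosphate phosphatase (0.994), and LOC101893938, actin-interacting protein 1 (0.994). For LOC101888642 they were LOC101890307, a catalytic subunit of the V-type proton pump (0.993), LOC101893585 (0.992) and LOC101897214, a lambda-crystallin homolog (0.991). For LOC101895285 they were the glutathione transferase LOC101897094 (0.999), the sulfotransferase LOC101896462 (0.983) and the troponin C gene LOC101890204 (0.976).

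For LOC101894465 the most alike were LOC101891450, cysteine dioxygenase (r = 0.997), the zinc finger gene LOC101901076 (0.992) and LOC101888953, a relative of the O-glucosyltransferase rumi (0.982). For LOC101893092 they were the metallopeptidase LOC101900480 (0.982), the sorbitol dehydrogenase LOC101887985 (0.975) and the monocarboxylate transporter LOC101888097 (0.969). None of these 15 nearest genes belonged to the chitinase or CBM14 lists.

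The neighbours on the scaffolds gave a further comparison. LOC101889135, the peritrophin-1 gene beside LOC101889312, was at 499.7, 602.5 and 184.1 CPM after RNA against MdCht9 and 593.9, 480.5 and 153.5 CPM in the controls. It shared the low values of both libraries numbered 3 with LOC101889312, and its log2 fold change was 0.07 ± 0.60, with a 95% interval from -1.37 to 1.50. Whether the 2 genes differed in this respect was not tested. LOC101901214, another gene with an obstructor-E match, on a different scaffold, was at -0.71 ± 0.46. Of the 7 tested genes with that match, 3 had lower estimates, with log2 fold changes from -0.71 to 0.70.

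LOC101895454, the CBM14 gene above LOC101895285, was as scarce as its neighbour, at 1.44, 1.71 and 0.958 CPM after RNA against MdCht9 and 1.80, 3.20 and 1.90 CPM in the controls. The groups were apart only by the margin of 22 against 25 reads, and overlapped by library size alone. The log2 fold change was -0.74 ± 0.38 (unadjusted p = 0.0878, edgeR adjusted p = 0.999). The CBM14 gene on the other side, LOC101895113, had at most 0.273 CPM in any library. The neighbours of LOC101888642 and LOC101894465 that were tested, LOC101900316 (prominin-like) and LOC101896793, lay at 0.24 ± 0.17 and -0.11 ± 0.24. LOC101891772, beside LOC101893092, lay at 0.13 ± 0.33, and LOC101889489, on the other side of LOC101889312, at 0.10 ± 0.24.

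The wider chitin genes set the 5 in context. Of the 32 genes of the chitinase family, which includes the 5, 29 were tested and 0 were called by edgeR. Lower estimates were found in 25, with a median log2 fold change of -0.23, against -0.0033 over all tested genes. The median of the 5 was -0.57, and without them 20 of 24 family genes had lower estimates, with a median of -0.20. By library size alone 19 of the 29 family genes had lower estimates, and without the 5 there were 14 of 24, with a median of -0.076. By that scaling 3443 of all 10644 tested genes had lower estimates, with a median of 0.12. Unadjusted p-values under 0.05 were found for 2 family genes, LOC101893092 and LOC101893192 (acidic mammalian chitinase-like), both lower. At that level 1.61% of all tested genes were lower and 1.97% higher. LOC101893192 lay at -1.05 ± 0.32 and was the only family gene that DESeq2 with the replicate block called (adjusted p = 0.0330). Of the 22 genes listed with Glyco_hydro_18, which include LOC101888642 and LOC101894465, 20 had lower estimates, with a median of -0.24. By library size alone these were 16 and -0.12.

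CBM14 proteins other than chitinases, the class that 3 of the 5 genes resemble by domain, lay lower in 56 of 66 tested genes, with a median of -0.38 and 0 called by edgeR. Unadjusted p-values under 0.05 were found for 6 of the 66, all lower, where 1.61% of all tested genes were lower by that measure. The genes of smallest p were LOC101892465, at -1.20 ± 0.24, which DESeq2 called (adjusted p = 0.0135), and LOC101887851, at -0.82 ± 0.27. In 31 of the 66 genes number 3 was lowest within both groups, as in LOC101889312 and LOC101895285. That pattern was found in 22.0% of all tested genes. The summed level of this list overlapped between groups, at 7580 to 11475 CPM in dsMdCht9 and 8210 to 12981 CPM in dsGFP.

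Cuticle proteins, taken as genes with the chitin-binding Chitin_bind_4 domain or described as larval cuticle proteins, had lower estimates in 62 of 80 tested genes, with a median of -0.30 and 0 called by edgeR. There were 3 lower and 1 higher at an unadjusted p under 0.05, where 1.61% of all tested genes were lower and 1.97% higher. The smallest p values were those of LOC101898819, a larval cuticle protein 5-like gene at -1.99 ± 0.54, and LOC101888989 at 1.05 ± 0.33. Enzymes of chitin synthesis and turnover were split, 10 lower and 8 higher, with a median of -0.13. By library size alone their median was 0.0031, where that of all tested genes was 0.12. The 2 genes of smallest p, LOC109612747 at 1.53 ± 0.45 and LOC101901729 at 0.58 ± 0.24, are both described as alpha-N-acetylglucosaminidase, a lysosomal enzyme known for degrading heparan sulphate rather than chitin. Ecdysteroid and moulting genes, which time the moult, lay near 0, with a median of -0.04, or 0.07 by library size alone beside the same 0.12. There were 10 lower and 7 higher, and 0 at an unadjusted p under 0.05. Their 2 genes of smallest p were LOC101888439 (E75-like) at -0.61 ± 0.46 and LOC101899172 (FTZ-F1) at 0.32 ± 0.28.

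**Figure D5:**
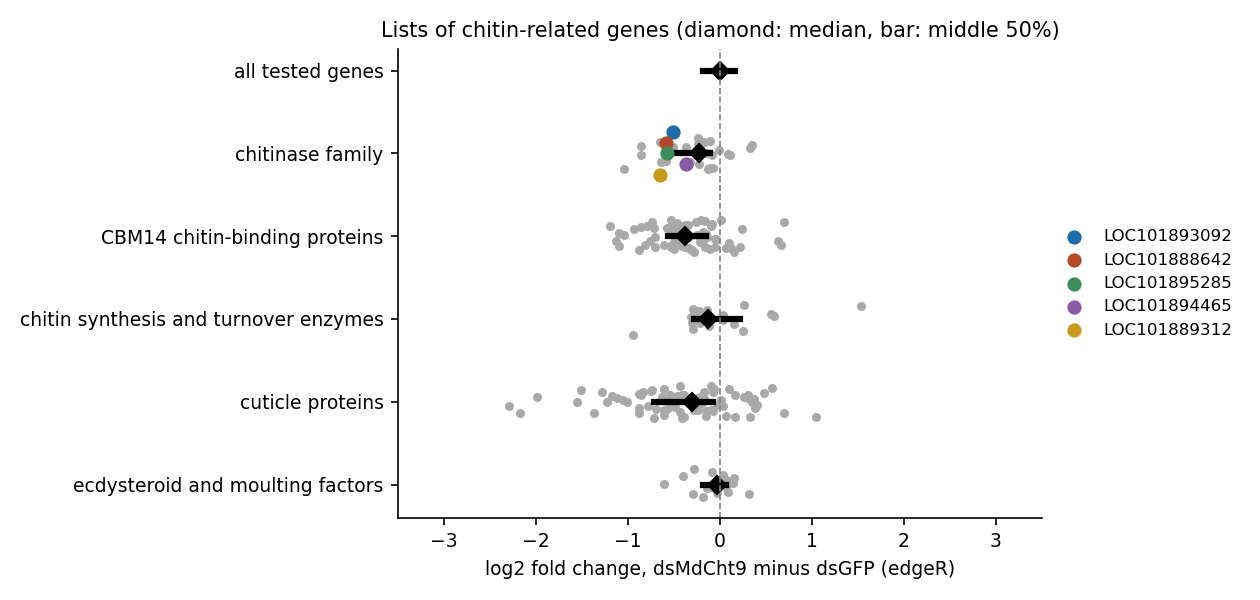
Log2 fold change (edgeR, dsMdCht9 minus dsGFP) of each tested gene in 5 lists of chitin-related genes, with the median as a diamond and the middle 50% of genes as a bar; for all tested genes only the median and bar are drawn. The 5 probable chitinase 3 genes are coloured within the chitinase family and all lie below its median of -0.23, between -0.65 and -0.37.

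Markers of the tissues in a whole larva were also lower in most tested genes: 121 of 167 trypsins and relatives with a median of -0.17, 12 of 13 storage proteins with -0.41, and 14 of 16 contractile proteins with -0.29. Of all tested genes, 50.5% were lower. By library size alone 104, 9 and 13 of these markers were lower, with medians of -0.067, -0.31 and -0.18, where 3443 of all 10644 tested genes were lower. These lists follow terms in descriptions and Pfam names, so not every gene in them is particular to its tissue. Haemocyte genes were split, 4 lower and 3 higher with a median of -0.09 (0.016 by library size alone). The neuronal list lay the other way, with 5 of 14 lower and a median of 0.07 (0.19 by library size alone). By library size alone the medians were -0.45 for the 5 genes, -0.11 for the chitinase family, -0.27 for CBM14 proteins and -0.21 for cuticle proteins, where all tested genes had 0.12. The part of tissue makeup in the levels of the 5 genes was not tested.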

How the data were processed

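RNA was sequenced from 3 dsMdCht9 and 3 dsGFP libraries, with 3 µg of RNA each, per the labels' protocols. The authors' deposited table holds raw read counts per gene, per the file headers, and the authors' comparison of the groups: the log2 change, the fold ratio, the mean signal, and p-values before and after adjustment. The submitters' processing notes list HTSeq 0.6.0, HISAT2 2.1.0 and StringTie 1.3.2d without roles. Not given in the sources used here are the genome build, strand use and treatment of multiply mapped reads, so reads shared by related genes are uncertain. Depth limits precision most for LOC101895285.

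Counts were filtered with filterByExpr, scaled by TMM and tested with the two-sided quasi-likelihood test of edgeR 4.0.16 (robust, group as the only term) in R 4.3.3, with Benjamini-Hochberg adjustment over 10644 genes and a threshold of 0.05. DESeq2 1.42.0 and limma-voom (limma 3.58.1) were alternatives, with other scalings, no filter, the replicate block and libraries left out. Log2 CPM used a prior count of 2. The edgeR, DESeq2 and limma-voom fits without the block were run on simulated counts that held no replicate effect. That run did not cover the replicate block, the permutation tests or the levels per kb. It therefore does not show how the procedure behaves where libraries deviate together, as they do here. The table has no coding lengths, so the planned length was replaced by the transcript match.

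Libraries of the same number deviated together from their group means, with correlations across genes of 0.24, 0.39 and 0.65 for numbers 1, 2 and 3. The pairing is therefore taken from the data and not from the labels, and dsGFP replicate 1 correlated more with dsMdCht9 replicate 2 (0.32). The 5 genes and the lists were chosen with earlier results of these data known. Genes named are the 5, their neighbours, the 3 genes most like each, and the 2 of smallest p in each chitin-related list. LOC101890724 is named as the highest gene of the chitinase family per length. LOC101899985, LOC101901214, LOC105262516, LOC101888821 and the gene called chitinase were named outside these rules, after their values were seen.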

Additional observations from a re-analysis of the deposited data

How the results depend on the processing

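Of the 5 genes, each kept its direction and stayed short of the threshold under all 14 alternatives. Leaving out 1 library gave log2 fold changes of -0.64 to -0.38 for LOC101893092, -1.09 to -0.31 for LOC101888642, -0.83 to -0.25 for LOC101895285, -0.54 to -0.04 for LOC101894465 and -1.29 to -0.28 for LOC101889312. Without both libraries numbered 3 they were -0.56, -0.52, -0.46, -0.16 and -0.67 in that order. edgeR called 0 genes of the table, DESeq2 13 and DESeq2 with the replicate block 87. The block changed no other call in edgeR. DESeq2 called 1 gene each, lower, of the CBM14 list and of the trypsins. DESeq2 with the replicate block called, as lower, 1 gene of the chitinase family (none of the 5), 3 CBM14 genes, 1 gene of chitin synthesis and turnover, 9 cuticle proteins, 5 trypsins and 1 storage protein, and 1 trypsin relative as higher. The cause of these differences was not tested.

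With genomic span as the length, the log2 ratio of LOC101888642 to LOC101895285 was -3.08 and to LOC101894465 -1.14, and that of LOC101895285 to LOC101894465 was 1.95. With the span for the higher gene and the match for the lower, chosen after the data were seen, the ratios were -0.51 for LOC101889312 to LOC101888642, -3.21 and -3.11 for LOC101888642 to LOC101895285 and LOC101894465, and -0.022 for LOC101895285 to LOC101894465. These follow from the construction, since introns count in the span. The order by planned coding length was not run. The 10 to 44 reads of LOC101895285 limit what can be seen of it.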
